A study of Sus scrofa with 18 samples.

Results

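Alveolar macrophages from healthy Danish Landrace-Yorkshire pigs were kept in culture ex vivo and exposed for 24 hours to Bacillus subtilis together with poly I:C, or to B. subtilis without poly I:C. Each of these 2 groups has 3 RNA-sequencing libraries, so that 6 of the 18 libraries of the series enter the comparison, all chosen by their labels alone. The question it answers is what poly I:C, a synthetic double-stranded RNA that imitates viral RNA, adds in cells that already meet a gram-positive bacterium given as a probiotic; both groups carry the bacterium. The other 4 treatments, with 3 libraries each, were poly I:C, Enterococcus faecium with poly I:C, E. faecium, and no addition (control), all for the same 24 hours. Cells are numbered as coming from pigs 1 to 3 within each treatment. The sources used here give no dose, no bacterial strain and no word on whether the cells of the bacterium were living.

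Alveolar macrophages are the resident phagocytes of the lung airspaces and among the first cells there to meet inhaled viruses and bacteria. Double-stranded RNA is read by Toll-like receptor 3 in endosomes and by the helicases RIG-I and MDA5 in the cytosol, which lead through the factors IRF3 and IRF7 to type I interferon. Secreted interferon then acts through JAK kinases and STAT factors to switch on a large set of antiviral genes. Bacterial cell wall components are read by other receptors, which lead mainly through NF-kB to cytokines such as IL-1, TNF and CXCL8.

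Poly I:C added to B. subtilis brought up interferon beta, the chemokines that bind CXCR3, the cytosolic RNA sensors and most of the antiviral effectors. Many genes of antigen presentation and of the unfolded protein response rose too, as did 6 of 18 brakes on cytokine signalling. The main inflammatory cytokines and neutrophil chemokines, among them IL1B, IL23A, CXCL8 and CXCL2, had high levels in both groups and did not pass the test. Genes that fell included the transcription factors VENTX and STAT6, the cytokine IL18, the glucose transporter SLC2A1 and ACACA, an enzyme of fatty acid synthesis.

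Of 13592 genes tested with edgeR's quasi-likelihood test, 2566 passed at an adjusted p of 0.05, or 18.9% of those tested. Of these, 1506 rose (11.1% of those tested) and 1060 fell (7.8%). More than 1 log2 unit separated the groups for 1018 of the genes that rose and 670 of those that fell, and more than 5 log2 units for 25 and 5. The groups did not overlap, every library of one lying above every library of the other, for 1246 of the genes that rose and 1039 of those that fell, and for 4120 of all genes tested (30.3%). The median log2 fold change over all genes tested was -0.01, the value beside which the list medians below are to be set. Against the 11.1% of all genes that rose, the shares that rose among other chemokines, TNF family ligands, Toll-like receptors, cell cycle genes and the NRF2 and iron genes were near the background or under it. With library totals alone as the scale, the median moved to -0.49 and 580 genes rose while 2986 fell, so that every direction given here is relative to the TMM scale. The count depended on single libraries: it was 4854 without library 2 of B. subtilis with poly I:C, 1347 and 1109 without its libraries 1 and 3, and 1600, 1506 and 1203 without libraries 1, 2 and 3 of B. subtilis. With only the 6 libraries of the comparison in the fit, 257 genes rose and 72 fell.

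The libraries differed in ways the 2 groups do not explain. They held 16346750 to 23818505 counts in the poly I:C group and 17130850 to 20961735 counts in the B. subtilis group. Residuals around the treatment means placed all 18 libraries in 3 sets, called A, B and C here, each with 1 library of every treatment. Among pairs of libraries of different treatments, those of the same set correlated between 0.412 and 0.797 over genes, and those of different sets between -0.611 and -0.0395. The sets were chosen to make the correlations within sets as high as possible, so this contrast is not independent evidence for them. For the same reason, p-values from fits with the set as a block, given below, can come out too small. Whether a set is an animal or something else is not given, and the sets did not follow the pig numbers. Of B. subtilis with poly I:C, libraries 1, 2 and 3 fell in sets A, B and C, and of B. subtilis libraries 3, 1 and 2. Differences between the groups were smaller in set B, with a standard deviation over 9041 genes at 5 CPM or more of 0.62 log2 units, against 1.2 in set A and 1.02 in set C. Among genes chosen for passing the test, 1484 of the 1506 that rose and 1052 of the 1060 that fell differed in the same direction in all 3 sets.

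The label of the cells was checked against markers. The macrophage genes CD68, with 7767 to 8327 counts, and CD163, with 1201 to 2063 counts, were present in every library of B. subtilis with poly I:C, as they were in those of B. subtilis, with 5916 to 9049 and 1730 to 2902 counts. The summed level of 12 alveolar macrophage markers was 10200 to 33700 CPM with poly I:C and 8140 to 11100 CPM without, most of it from APOE. Of the 12, 4 rose: the call of C1QB held in all 6 fits that left out 1 library, that of SIGLEC1 in 3, and those of APOE and C1QA in 1. FABP4, a lipid carrier typical of these cells, was low, with 17 to 77 counts in the libraries with poly I:C and 41 to 54 in those without. Markers of T, NK and B cells summed to 303 to 369 CPM with poly I:C and 258 to 369 CPM without. Of these, 1 of 10 rose, CD2, a share near the 11.1% of all genes tested that rose. The CD2 call held in 3 of the 6 fits that left out 1 library, and its groups overlapped. With the library set as a block, 1 epithelial marker rose and 1 fell. Without a block, none of the tested markers of neutrophils and mast cells (3), epithelium (6) or endothelium (1) passed with edgeR. Of these markers, 0 had an unadjusted p under 0.05 there, and 0 passed with DESeq2. Their sums were 1480 to 3310 CPM with poly I:C and 2240 to 3170 CPM without, 66.3 to 345 and 133 to 391 CPM, and 1.93 to 3.02 and 1.95 to 4.59 CPM. Most of the first sum came from S100A12, with 18779 to 55260 counts over the 6 libraries, and most of the second from EPCAM, with 716 to 7964. MPO, CPA3, VWF and CDH5 had 0 counts in all 6 libraries.

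**Figure D1:**
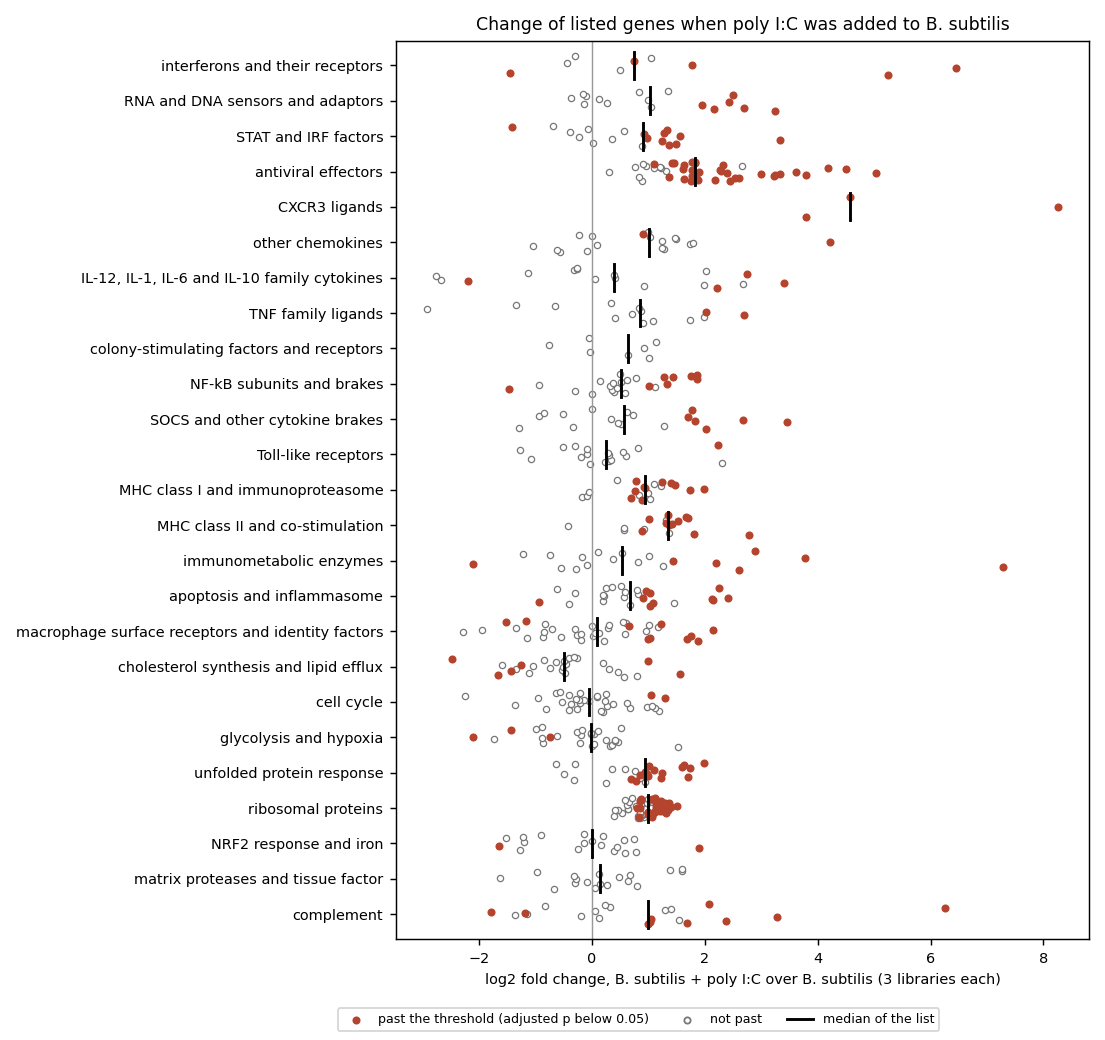
Log2 fold change of each tested gene of 25 lists, B. subtilis with poly I:C over B. subtilis, 3 libraries each. Filled points passed the test, open points did not, and the bar is the list's median; the CXCR3 ligands, with a median of 4.58, and the antiviral effectors, with a median of 1.82, lie farthest to the right.

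Interferons and their receptors made up 9 tested genes, of which 4 rose, 1 fell, and the median was 0.74 log2 units. IFNB1, interferon beta (gene ID 445459, Sscrofa11.1 chromosome 1, 201850935 to 201851495), had 31.2, 48.5 and 37.9 CPM in libraries 1, 2 and 3 of B. subtilis with poly I:C, against 0.781, 0.418 and 0.112 CPM in libraries 1, 2 and 3 of B. subtilis. CPM are a gene's counts scaled to a common, TMM-corrected library size, values run in this library order throughout, and "with poly I:C" and "without" stand for these 2 groups, both on B. subtilis. All 3 libraries with poly I:C lay far above all 3 without. It rose by 6.45 log2 units (SE 1.09, adjusted p = 0.0013, n = 3 libraries each here and below). IFNA1, an interferon alpha gene, had 0.737, 19.8 and 2.51 CPM with poly I:C, against 0.39, 0.139 and 0.0558 CPM without. Library 2 with poly I:C stood far above its 2 companions, and the rise of 5.25 log2 units (SE 1.39, adjusted p = 0.0198) passed in 3 of the 6 fits that left out 1 library. IFN-ALPHAOMEGA, of the same family, rose by 6.40 log2 units (SE 1.48, adjusted p = 0.0107); interferon alpha genes are near-identical copies, so their counts are uncertain. IFNG, the interferon of T and NK cells, had 2.12, 1.7 and 4.11 CPM with poly I:C, against 0.683, 0.883 and 0.726 CPM without; its rise of 1.78 log2 units (SE 0.51, adjusted p = 0.0246) passed in 2 of those 6 fits. IFNAR1, a chain of the type I interferon receptor, fell by 1.45 log2 units (SE 0.39, adjusted p = 0.0192), a call that held in 3 of the 6 fits. Over those fits, 1 to 3 genes of the list rose. In bulk RNA a change in the cells of a type and a change in RNA per cell cannot be told apart.

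Cytosolic sensors of foreign RNA and DNA rose together: 6 of 16 tested sensors and adaptors rose and 0 fell, with a median of 1.03 log2 units. DDX58, which encodes the RNA sensor RIG-I (396723), had 2550, 2860 and 3610 CPM with poly I:C, against 445, 361 and 147 CPM without. The 2 groups were well apart, and the gene rose by 3.25 log2 units (SE 0.58, adjusted p = 0.00176). The other RNA helicases followed, IFIH1 (MDA5) by 1.95 log2 units (adjusted p = 0.00486) and DHX58 (LGP2) by 2.69 (adjusted p = 0.00393). Both parts of the DNA-sensing route rose too, MB21D1 (cGAS) by 2.43 log2 units (adjusted p = 5e-04) and TMEM173 (STING) by 2.50 (adjusted p = 0.00293). The endosomal receptor TLR3 had 1.93, 11 and 2.13 CPM with poly I:C, against 7.32, 3.81 and 5.36 CPM without, and did not pass (adjusted p = 0.925). Its libraries 1 and 3 with poly I:C lay below every library without, and library 2 lay above them all. Among adaptors and kinases, MAVS, TBK1, TRAF3, TICAM1 and IKBKE had log2 fold changes between -0.38 and 0.27 and did not pass.

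Of 18 STAT, JAK and IRF genes, 9 rose, 1 fell, and the median was 0.90 log2 units. IRF7, the factor that drives interferon alpha genes, had 3340, 998 and 2610 CPM with poly I:C, against 297, 280 and 112 CPM without, and rose by 3.33 log2 units (SE 0.52, adjusted p = 0.000897). STAT2, which carries the interferon signal to the nucleus, rose by 1.28 log2 units (SE 0.30, adjusted p = 0.00938), a call that held in 4 of the 6 fits that left out 1 library. The kinase JAK2 rose by 1.56 log2 units (adjusted p = 0.00251), and IRF2 by 1.37 (adjusted p = 0.002). STAT6, which carries the signals of IL-4 and IL-13, went the other way, with 86.2, 110 and 66.9 CPM with poly I:C, against 216, 217 and 273 CPM without. It fell by 1.42 log2 units (SE 0.20, adjusted p = 0.000418). The number that rose was 5 without library 3 of B. subtilis.

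Antiviral effectors, here a list of genes of the antiviral response, mostly rose: 34 of 45 did, 0 fell, and the median was 1.82 log2 units. Of the 45, 39 did not overlap between the groups, beside 30.3% of all genes tested. In all 3 library sets 44 were higher with poly I:C. The share of all genes that were so was not counted, and the sets were drawn from these same data. ISG15, a ubiquitin-like protein attached to viral and host proteins (100145895, chromosome 6, 63363201 to 63364211), had 38000, 6410 and 23500 CPM with poly I:C, against 981, 829 and 255 CPM without. It took a mean of 1.59% of all counts with poly I:C and 0.0727% without, and rose by 5.04 log2 units (SE 0.89, adjusted p = 0.00176). IFIT1, which binds foreign RNA ends, had 3560, 1860 and 3040 CPM with poly I:C, against 267, 260 and 81.9 CPM without, and rose by 3.80 log2 units (SE 0.66, adjusted p = 0.00158). OASL, a relative of the oligoadenylate synthetases, rose by 4.50 log2 units (SE 0.92, adjusted p = 0.00436), and PLAC8 by 4.19 (SE 0.99, adjusted p = 0.0103). MX1, a GTPase that blocks viral nucleoproteins, had 3760, 3430 and 3690 CPM with poly I:C, levels that lay close together, against 1060, 858 and 316 CPM without. It rose by 2.28 log2 units (SE 0.56, adjusted p = 0.0122), a call lost without library 3 of B. subtilis. RSAD2 (viperin) had 1570, 5280 and 4230 CPM with poly I:C, against 838, 805 and 109 CPM without; the groups did not overlap, but the gene missed the threshold (2.66 log2 units, SE 0.92, adjusted p = 0.0556). MX2 did not pass either (1.32 log2 units, SE 0.72, adjusted p = 0.21). Both passed with the library set as a block in edgeR (adjusted p = 0.00163 for RSAD2 and 0.0247 for MX2). The sets were drawn from these same data, so this adds no independent support. Leaving out 1 library gave 26 to 35 effectors that rose, and the fit with only the 6 libraries gave 17.

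**Figure D2:**
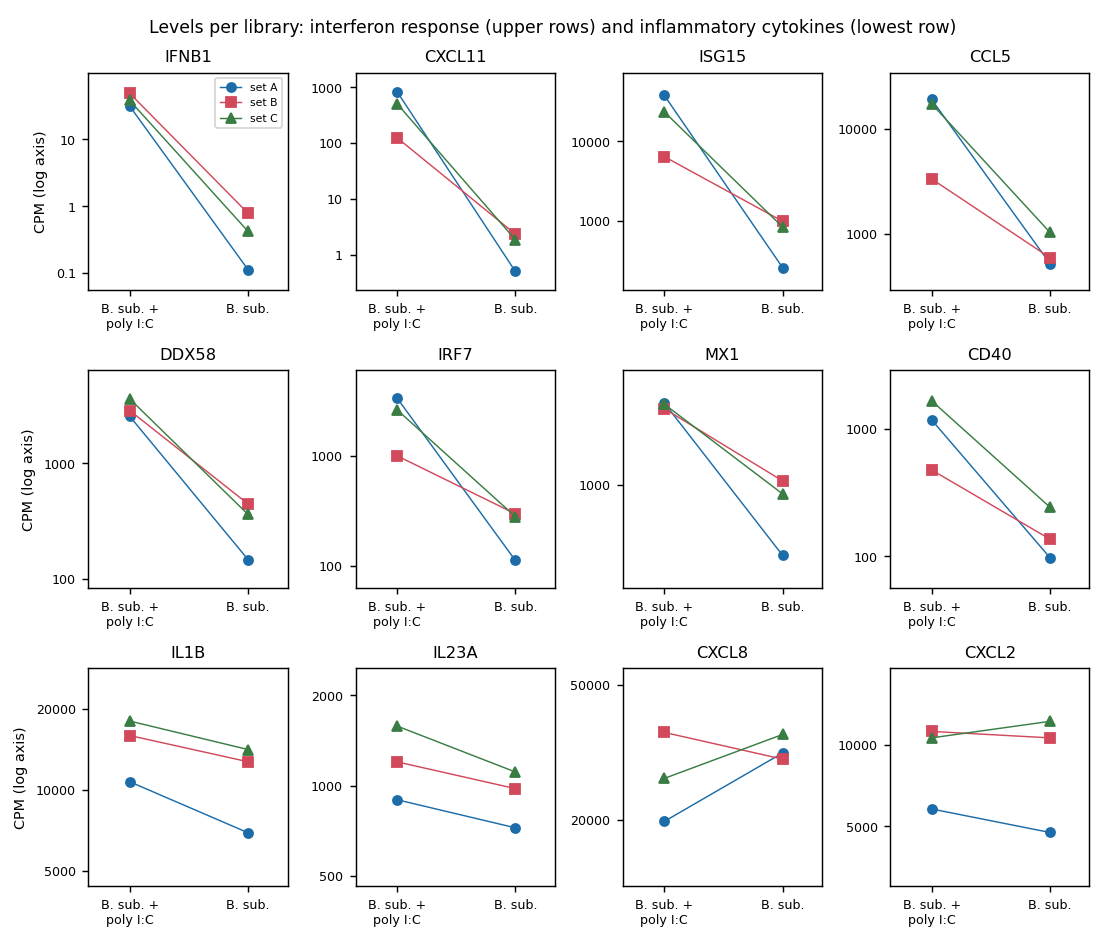
Level in CPM, on a log axis, of 12 genes in the 3 libraries of B. subtilis with poly I:C (left in each panel) and of B. subtilis (right). Lines join libraries of the same set (A, B or C); the 8 genes of the upper rows do not overlap between the groups, while the 4 cytokines of the lowest row do.

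The 3 chemokines that bind CXCR3, a receptor of activated T and NK cells, all rose. CXCL11 (100169744, chromosome 8, 71713790 to 71725669) had 829, 124 and 504 CPM with poly I:C, against 2.34, 1.86 and 0.503 CPM without, the widest gap among the genes named here. It rose by 8.26 log2 units (SE 0.95, adjusted p = 0.000214). CXCL10 had 8200, 3550 and 7340 CPM with poly I:C, against 480, 589 and 308 CPM without, and rose by 3.79 log2 units (SE 0.50, adjusted p = 0.000349). CXCL9 had 27.9, 4.23 and 67.1 CPM with poly I:C, against 0.342, 2.6 and 1.17 CPM without; its rise of 4.58 log2 units (SE 1.08, adjusted p = 0.0102) was lost without library 3 of B. subtilis with poly I:C. Library 2 with poly I:C was the lowest of its group for all 3 chemokines, as it was for ISG15 and IRF7, whereas for IFNB1 it was the highest.

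Of 18 other chemokines, 2 rose and 0 fell. CCL5, which draws T cells and monocytes, had 19000, 3330 and 17300 CPM with poly I:C, against 591, 1030 and 520 CPM without, and rose by 4.21 log2 units (SE 0.64, adjusted p = 0.000762). PPBP, a platelet chemokine, rose by 0.91 log2 units (SE 0.30, adjusted p = 0.0438), a call that held in 1 of the 6 fits that left out 1 library. The neutrophil chemokine CXCL8 was among the most abundant transcripts of both groups, with 19800, 36200 and 26500 CPM with poly I:C, against 30200, 35700 and 31500 CPM without. It overlapped between the groups and did not pass (-0.24 log2 units, SE 0.44, adjusted p = 0.751). CXCL2, of the same kind, had 5790, 11200 and 10600 CPM with poly I:C, against 10600, 12200 and 4740 CPM without (0.01 log2 units, SE 0.70, adjusted p = 0.997). CCL20, which draws dendritic cells and some T cells, had 1740, 903 and 1110 CPM with poly I:C, against 502, 360 and 718 CPM without. Its groups did not overlap, yet it did not pass (1.25 log2 units, SE 0.80, adjusted p = 0.293).

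Among 17 cytokines of the IL-12, IL-1, IL-6 and IL-10 families, 3 rose, 1 fell, and the median was 0.39 log2 units. IL15, a growth factor of T and NK cells, had 115, 49.4 and 210 CPM with poly I:C, against 9.18, 18.9 and 7.32 CPM without, and rose by 3.40 log2 units (SE 0.59, adjusted p = 0.00151). IL27 and EBI3, the 2 chains of interleukin-27, rose together. IL27 had 1900, 1900 and 4090 CPM with poly I:C, against 442, 548 and 181 CPM without (2.75 log2 units, SE 0.67, adjusted p = 0.0118), and its call was lost without library 3 of either group; EBI3 rose by 2.22 log2 units (SE 0.51, adjusted p = 0.00814). IL18, a cytokine released after cleavage by caspase-1, had 23.9, 10.8 and 7.77 CPM with poly I:C, against 30.5, 77.4 and 84.4 CPM without. It fell by 2.19 log2 units (SE 0.62, adjusted p = 0.0245), a call that held in 3 of the 6 fits that left out 1 library. IL1B, whose reads may be shared with a near-identical pig gene, had 10700, 15900 and 18000 CPM with poly I:C, against 12700, 14100 and 6910 CPM without, and did not pass (0.41 log2 units, SE 0.85, adjusted p = 0.783). IL23A, the p19 chain of interleukin-23, had 897, 1200 and 1580 CPM with poly I:C, against 977, 1110 and 723 CPM without (0.39 log2 units, SE 0.81, adjusted p = 0.784). Neither these 2 nor IL6 (2.03 log2 units, adjusted p = 0.248), IL12B (2.68, adjusted p = 0.365) or IL10 (0.92, adjusted p = 0.366) passed. With the library set as a block in edgeR, IL6 (adjusted p = 0.00608), IL12B (adjusted p = 0.0347) and IL10 (adjusted p = 0.0158) were past the threshold, all higher with poly I:C. The sets were drawn from these same data, so this adds no independent support, and IL6, IL12B and IL10 all overlapped between the groups. IL12B had 4.79, 2.24 and 60.7 CPM with poly I:C, against 0.83, 9.34 and 0.279 CPM without.

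Of 14 TNF family ligands 2 rose and 0 fell. TNFSF10 (TRAIL), a death ligand, had 955, 1120 and 1170 CPM with poly I:C, against 221, 205 and 75 CPM without, and rose by 2.70 log2 units (SE 0.42, adjusted p = 0.000848). TNFSF13B (BAFF), a survival factor of B cells, rose by 2.02 log2 units (SE 0.32, adjusted p = 0.000878). TNF itself had 5130, 3160 and 6390 CPM with poly I:C, against 1380, 1700 and 637 CPM without. Every library with poly I:C lay above every library without, but the gene missed the threshold (1.98 log2 units, SE 0.87, adjusted p = 0.123; it passed with DESeq2). None of 7 colony-stimulating factors and receptors passed with edgeR, with 2 at an unadjusted p under 0.05 and 0 with DESeq2. With the library set as a block 2 of them rose and 1 fell, and without library 2 of B. subtilis with poly I:C 1 rose.

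The NF-kB list, 23 subunits, inhibitors and feedback genes, had 7 that rose and 1 that fell, with a median of 0.51 log2 units; 4 rose without libraries 1 or 3 of either group. None of the 7 was a subunit of NF-kB: TNFAIP2, a gene induced by TNF, rose by 1.87 log2 units (adjusted p = 0.033, held in 2 of the 6 fits that left out 1 library), TRAF1 by 1.86 (adjusted p = 0.00235), and TNIP3 and TNIP1, which bind the brake A20, by 1.75 (adjusted p = 0.00502) and 1.44 (adjusted p = 0.00306). NFKB1, RELA and NFKBIA had log2 fold changes of 0.45, 0.15 and 0.33 and did not pass. IRAK3, a brake on Toll-like receptor signalling, had 7.37, 9.1 and 7.39 CPM with poly I:C, against 18.1, 22.3 and 25.7 CPM without, and fell by 1.47 log2 units (SE 0.33, adjusted p = 0.008). Brakes on cytokine and T cell signals rose in 6 of 18 cases and fell in 0. They included IL18BP, which neutralises interleukin-18, by 3.46 log2 units (SE 0.74, adjusted p = 0.00565), the checkpoint ligands PDCD1LG2 by 2.68 (SE 0.34, adjusted p = 0.000293) and CD274 by 2.02 (SE 0.44, adjusted p = 0.00628), and SOCS1, an inhibitor of JAK kinases, by 1.71 (SE 0.41, adjusted p = 0.0104). Of 18 Toll-like receptors and partners 1 rose, UNC93B1, which carries nucleic acid receptors to endosomes, by 2.24 log2 units (SE 0.36, adjusted p = 0.000993).

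Antigen presentation rose on both arms. In the MHC class I list, 11 of 20 tested rows of 19 genes (B2M has 2) rose, 0 fell, and the median was 0.94 log2 units. PSMB9, a catalytic subunit of the immunoproteasome, had 996, 346 and 846 CPM with poly I:C, against 159, 216 and 178 CPM without, and rose by 1.98 log2 units (SE 0.33, adjusted p = 0.00129). PSMB8, its partner subunit, rose by 1.74 log2 units (adjusted p = 0.00176), and TAP1, a chain of the peptide transporter, by 1.40 (SE 0.24, adjusted p = 0.00146). In the MHC class II and co-stimulation list, 11 of 17 rose, 0 fell, and the median was 1.35 log2 units. CD40, the receptor for the helper signal of T cells, had 1170, 474 and 1650 CPM with poly I:C, against 136, 242 and 97.4 CPM without, and rose by 2.79 log2 units (SE 0.54, adjusted p = 0.00295). SLA-DRA and SLA-DQB1, pig class II chains, rose by 1.66 (adjusted p = 0.00293) and 1.69 log2 units (adjusted p = 0.00832), and reads of SLA genes may be shared between copies. CD80 had 87.2, 142 and 252 CPM with poly I:C, against 58.5, 88.1 and 39.3 CPM without, and did not pass (adjusted p = 0.132). It did with the library set as a block (adjusted p = 0.00945), a block drawn from these same data. The counts that rose were 5 to 12 in class I and 6 to 12 in class II when 1 library was left out, and 1 and 0 with only the 6 libraries in the fit. Both lists differed least in set B, with medians of 0.56 and 0.62 log2 units, against 1.23 and 1.83 in set A and 0.89 and 1.42 in set C.

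Enzymes that macrophages use to reshape metabolites on activation rose in 6 of 19 cases and fell in 1. ASS1, which rebuilds arginine from citrulline, had 15.8, 3.26 and 14.7 CPM with poly I:C, against 0.0488, 0.139 and 0 CPM without, and rose by 7.29 log2 units (SE 1.00, adjusted p = 0.000418). ACOD1, which makes itaconate, had 3730, 2370 and 3000 CPM with poly I:C, against 539, 507 and 455 CPM without, and rose by 2.60 log2 units (SE 0.48, adjusted p = 0.0022). Of tryptophan genes, WARS, a tryptophanyl-tRNA synthetase, rose by 2.89 log2 units (SE 0.43, adjusted p = 0.000593) and IDO1, which breaks tryptophan down, by 2.21 (SE 0.59, adjusted p = 0.0181); the call of IDO1 held in 3 of the 6 fits that left out 1 library. NOS2, the inducible nitric oxide synthase, reached 19 CPM in 1 library with poly I:C and 2.49 CPM or less in the others, and its call (3.77 log2 units, adjusted p = 0.0461) held in 1 of those fits. HK2, the first enzyme of glycolysis, had 8.01, 70 and 9.44 CPM with poly I:C, against 124, 103 and 152 CPM without. It fell by 2.11 log2 units (SE 0.62, adjusted p = 0.029); library 2 with poly I:C lay far above its companions, and the call held in 1 of the 6 fits, the one without that library.

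Among 25 genes of apoptosis and the inflammasome, 9 rose, 1 fell, and the median was 0.68 log2 units. CASP1, the protease of the inflammasome, had 132, 64.6 and 163 CPM with poly I:C, against 17.4, 37 and 13.3 CPM without, and rose by 2.41 log2 units (SE 0.41, adjusted p = 0.00142). The death-promoting BCL2 relatives PMAIP1 and BID rose by 2.25 (SE 0.53, adjusted p = 0.00938) and 2.13 log2 units (SE 0.50, adjusted p = 0.00946), the second not without library 1 of B. subtilis with poly I:C. BCL2L1, a survival member, fell by 0.93 log2 units (SE 0.30, adjusted p = 0.0392), a call held in 1 of the 6 fits. The number that rose was 4 to 6 when any library but library 2 of B. subtilis with poly I:C was left out, and 12 without that one.

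Surface receptors and identity factors of macrophages showed no common direction: 8 of 36 rose and 2 fell, around a median of 0.09 log2 units; 3 to 5 rose when any library but library 2 of B. subtilis with poly I:C was left out. FCGR3A, an antibody receptor, had 1270, 611 and 1210 CPM with poly I:C, against 322, 236 and 139 CPM without, and rose by 2.15 log2 units (SE 0.38, adjusted p = 0.00176). AXL, a receptor for dying cells, had 416, 400 and 388 CPM with poly I:C, against 118, 107 and 100 CPM without, values that varied little within each group (1.89 log2 units, SE 0.23, adjusted p = 0.000238). TGFBR1, a chain of the TGF-beta receptor, had 119, 120 and 106 CPM with poly I:C, against 187, 368 and 436 CPM without, and fell by 1.52 log2 units (SE 0.31, adjusted p = 0.00422). PPARG, a factor of alveolar macrophage identity, had 248, 171 and 122 CPM with poly I:C, against 191, 315 and 454 CPM without, and MARCO, a scavenger receptor, ranged from 6.62 to 189 CPM with poly I:C and from 9.18 to 79 CPM without. Neither passed (adjusted p = 0.235 and 0.484).

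Of 21 complement genes 8 rose, 2 fell, and the median was 0.99 log2 units. Between 4 and 5 rose when any library but library 2 of B. subtilis with poly I:C was left out. The list differed least in set B, with a median of 0.25 log2 units, against 1.10 in set A and 1.09 in set C. C3AR1, the receptor of the C3a fragment, rose by 3.27 log2 units (SE 0.48, adjusted p = 0.000593) and C1R, a protease of the classical pathway, by 2.38 (SE 0.38, adjusted p = 0.000993). The membrane inhibitors moved the other way. CD46 had 115, 162 and 109 CPM with poly I:C, against 251, 312 and 319 CPM without, and fell by 1.19 log2 units (SE 0.19, adjusted p = 0.000993); CD55 fell by 1.78 (SE 0.47, adjusted p = 0.0177), a call held in 3 of the 6 fits.

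Of 26 genes of cholesterol synthesis and lipid efflux, 4 fell and 2 rose around a median of -0.50 log2 units. The 4 were 3 enzymes of fatty acid synthesis and 1 of sterol synthesis. Without library 2 or 3 of B. subtilis, or library 1 or 3 of B. subtilis with poly I:C, 2 fell. ACACA, which makes malonyl-CoA, had 8.1, 19.1 and 8.45 CPM with poly I:C, against 33.7, 37.9 and 42.2 CPM without, and fell by 1.66 log2 units (SE 0.34, adjusted p = 0.00395). LSS, the lanosterol synthase, fell by 1.26 log2 units (SE 0.28, adjusted p = 0.00759), FASN by 1.44 (SE 0.44, adjusted p = 0.0334) and SCD by 2.47 (SE 0.82, adjusted p = 0.0478), and the FASN and SCD calls held in 2 and 1 of the 6 fits. The apolipoprotein APOE rose by 1.56 log2 units (SE 0.45, adjusted p = 0.0259), with 26000, 5990 and 20300 CPM with poly I:C, against 4240, 6650 and 6780 CPM without. Library 2 with poly I:C lay inside the range of B. subtilis, and the call held in 1 of the 6 fits, the one without that library.

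Glycolysis and the hypoxia response had 3 genes that fell and 0 that rose among 27, around a median of -0.02: HK2, SLC2A1 and LDHA. That share is near the 7.8% of all genes tested that fell. SLC2A1, the glucose transporter GLUT1, had 77.6, 141 and 48.9 CPM with poly I:C, against 200, 183 and 336 CPM without, and fell by 1.43 log2 units (SE 0.35, adjusted p = 0.0129). LDHA, the lactate dehydrogenase chain, fell by 0.75 log2 units (SE 0.20, adjusted p = 0.0167). None of these 3 calls held without library 1 or 3 of B. subtilis with poly I:C, or without library 3 of B. subtilis. Of 33 cell cycle genes 2 rose, PCNA and MCM5, and 0 fell, a split that turned round to 2 that fell with library totals alone as the scale. The PCNA and MCM5 calls held in 2 and 3 of the 6 fits, and 0 cell cycle genes rose without library 1 or 3 of B. subtilis or library 3 of B. subtilis with poly I:C. In the NRF2 and iron list of 19, HMOX1, which degrades haem, rose by 1.89 log2 units (SE 0.46, adjusted p = 0.0109) and ME1, the malic enzyme, fell by 1.65 (SE 0.49, adjusted p = 0.029), calls held in 4 and 2 of the 6 fits. None of 18 matrix proteases and tissue factor genes passed with edgeR, with 0 at an unadjusted p under 0.05 and 0 with DESeq2. With the library set as a block 1 of them rose and 3 fell, and without library 2 of B. subtilis with poly I:C 2 rose and 1 fell.

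**Figure D3:**
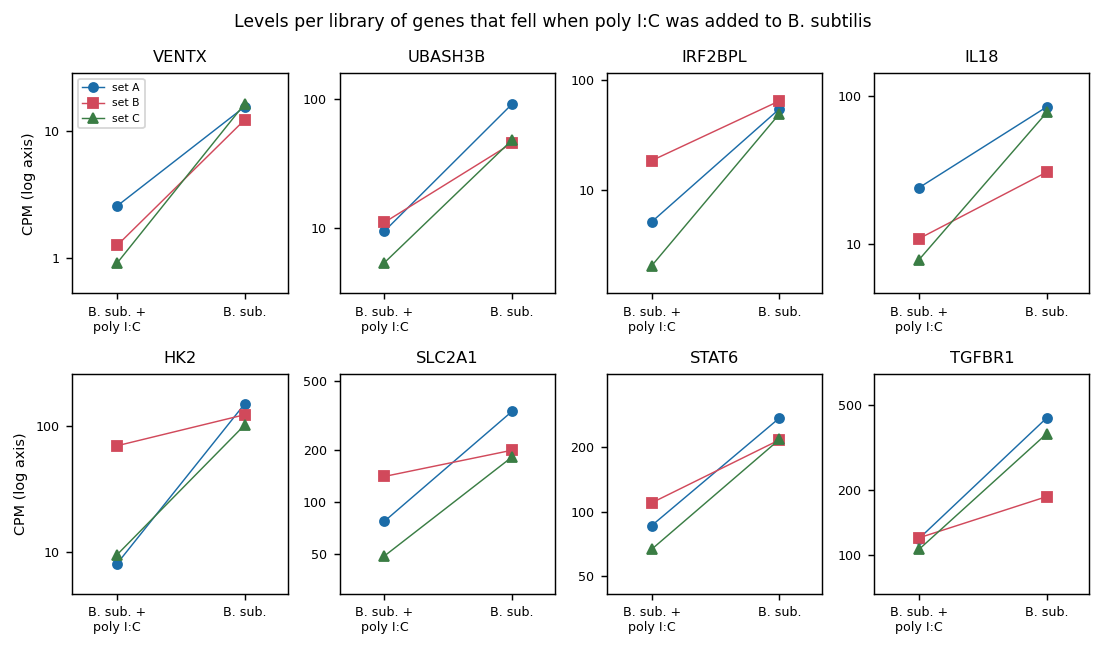
Level in CPM, on a log axis, of 8 genes that fell, in the 3 libraries of B. subtilis with poly I:C (left in each panel) and of B. subtilis (right), with lines joining libraries of the same set. In every panel all 3 libraries on the left lie below all 3 on the right; HK2 in set B is the smallest drop of its panel.

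The unfolded protein response, by which the endoplasmic reticulum copes with a load of new proteins, had 15 of 25 genes that rose and 0 that fell, with a median of 0.94 log2 units. XBP1, its splicing-activated factor, had 349, 571 and 717 CPM with poly I:C, against 193, 136 and 85.8 CPM without, and rose by 1.98 log2 units (SE 0.36, adjusted p = 0.00187). DDIT3 (CHOP), a stress factor, rose by 1.70 log2 units (SE 0.37, adjusted p = 0.00583), and SEC61B, a subunit of the protein channel of the membrane, by 1.64 (SE 0.25, adjusted p = 0.000713). PPP1R15A, which restarts translation after stress, rose by 1.74 log2 units (SE 0.42, adjusted p = 0.0105), a call lost without library 3 of B. subtilis. The count was 9 without that library and 2 with only the 6 libraries in the fit. This list too differed least in set B, with a median of 0.62 log2 units, against 1.09 in sets A and C.

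Ribosomal protein genes took 4.001, 1.86 and 3.018% of all counts in libraries 1, 2 and 3 of B. subtilis with poly I:C, against 2.07, 2.045 and 2.496% in libraries 1, 2 and 3 of B. subtilis. The shares of 2 of the 3 libraries with poly I:C lay above the range of the other group and that of library 2 below it. Of 63 genes, 35 rose, 0 fell, and the median was 1.00 log2 units, within a narrow range of 0.39 to 1.50. The gain lay in sets A and C, where the medians were 1.36 and 1.10 log2 units, against 0.19 in set B. RPS14, a protein of the small subunit, had 1550, 330 and 882 CPM with poly I:C, against 283, 298 and 395 CPM without, and rose by 1.50 log2 units (SE 0.44, adjusted p = 0.0281). Of the 63, 10 did not overlap between the groups, a smaller share than the 30.3% of all genes tested. The count was 0 when any library but library 2 of B. subtilis with poly I:C was left out, 0 with only the 6 libraries in the fit and 0 with library totals alone as the scale, and it was 61 without that library 2.

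Gene span, the distance from a gene's start to its end in the annotation, moved with the difference in the same 2 sets. With genes split into 4 equal groups by span, in the group with the shortest, up to 10496 bases, the median difference between B. subtilis with poly I:C and B. subtilis was 0.57 log2 units in set A, 0.04 in set B and 0.41 in set C. In the group with the longest, from 62217 bases, it was -0.42 in set A, 0.13 in set B and -0.38 in set C. Ribosomal protein genes, with a median span of 4125 bases, are short. The MHC class I and class II lists had median spans of 9590 and 9685 bases, just under the upper bound of the shortest group. Their members were not all that short: SLA-2 of class I spans 42659 bases and CD40 12073 bases. Both lists, as given above, differed least in set B. Antiviral effectors have a median span of 18983 bases and were higher in set B as well, by a median of 1.46 log2 units. The part of gene span in these results was not tested.

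**Figure D4:**
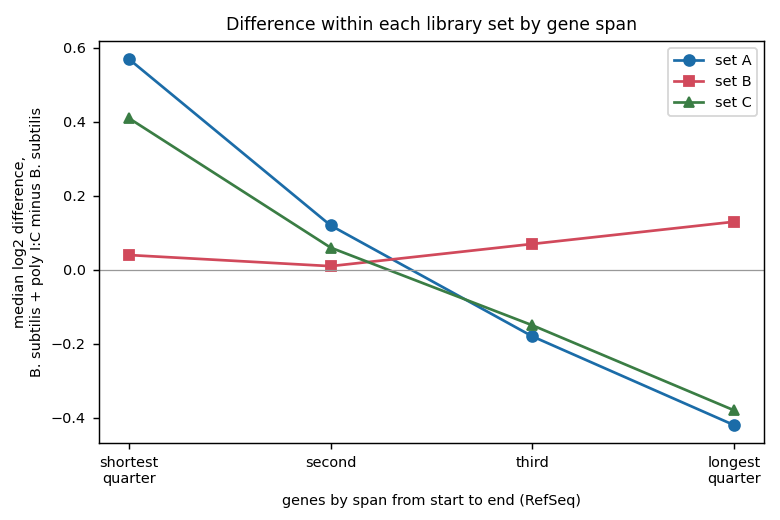
Median log2 difference, B. subtilis with poly I:C minus B. subtilis, within library sets A, B and C, for 9041 genes in 4 equal groups from shortest to longest span. Sets A and C slope down, with 0.57 and 0.41 in the shortest group and -0.42 and -0.38 in the longest, while set B stays between 0.01 and 0.13.

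Outside the lists, the highest fold changes among called genes with at least 5 CPM in the higher group and no overlap between the groups held several genes with other roles. IL4I1, an enzyme that oxidises amino acids, had 370, 64.6 and 577 CPM with poly I:C, against 11.9, 13.3 and 13.1 CPM without, and rose by 4.72 log2 units (SE 0.67, adjusted p = 5e-04). HES4, a transcription factor, had 1170, 390 and 1220 CPM with poly I:C, against 39.4, 64 and 12.8 CPM without, and rose by 4.58 log2 units (SE 1.03, adjusted p = 0.00787). NPTX1, a pentraxin known from neurons, had 62.1, 67.5 and 51 CPM with poly I:C, against 1.02, 4.51 and 1.34 CPM without (4.70 log2 units, SE 0.96, adjusted p = 0.00409). EREG, a ligand of the EGF receptor, rose by 5.20 log2 units (SE 0.73, adjusted p = 0.000456), MRAP2, a partner of melanocortin receptors, by 4.99 (SE 0.94, adjusted p = 0.00265), and IGFBP4, which binds insulin-like growth factors, by 4.91 (SE 0.76, adjusted p = 0.000809). The MRAP2 value was 7.5 log2 units without library 1 of B. subtilis and at least 4.43 without any other 1 library, and it did not pass with only the 6 libraries in the fit (adjusted p = 0.0693). PDGFRL rose by 5.66 log2 units (SE 0.79, adjusted p = 0.000447) and the ephrin EFNA5 by 4.61 (SE 0.98, adjusted p = 0.00546). TIMD4, a receptor for dying cells, had 292 counts over the 3 libraries with poly I:C and 3 without, a ratio of 131 at equal library size (95% exact interval 44.3 to 638, counting error only).

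Among called genes with at least 5 CPM in the higher group and no overlap between the groups, the lowest fold changes lay nearer to 0 than the highest. VENTX, a homeobox factor, had 2.58, 1.26 and 0.914 CPM with poly I:C, against 12.4, 16.6 and 15.7 CPM without, and fell by 3.26 log2 units (SE 0.34, adjusted p = 0.000127). UBASH3B, a phosphatase that dampens receptor signals, had 9.49, 11.1 and 5.41 CPM with poly I:C, against 45.7, 48.4 and 91.9 CPM without, and fell by 2.83 log2 units (SE 0.47, adjusted p = 0.00122). IRF2BPL had 5.16, 18.6 and 2.06 CPM with poly I:C, against 64.9, 49.6 and 54.9 CPM without (-2.69 log2 units, SE 0.59, adjusted p = 0.00692). CASS4, a scaffold of cell adhesion, fell by 2.75 log2 units (SE 0.55, adjusted p = 0.00389), AKAP1, which anchors protein kinase A at mitochondria, by 2.62 (SE 0.54, adjusted p = 0.00435), and the adaptor PRAM1 by 2.38 (SE 0.46, adjusted p = 0.00325). C1H9orf152 had the lowest value among the genes that the rule ranks, -3.32 log2 units (SE 0.67, adjusted p = 0.0041). The other 8 of the 15 genes named by rule, ZNF395, TMEM246, ADCK1, GPR160, HAP1, RAI14, ABCC4 and MINDY1, fell by 2.19 to 2.99 log2 units, and TMEM246 and MINDY1 held their calls in all 6 fits that left out 1 library.

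Poly I:C was also added to cells without bacteria and to cells with E. faecium, in libraries that this comparison does not share. Poly I:C against control called 3055 genes (22.5% of those tested), of which 1757 rose (12.9%) and 1298 fell (9.55%). Of the genes that rose with poly I:C on B. subtilis, 936 also rose there, which is 62.2% of the first list and 53.3% of the second; of those that fell, 600 did, or 56.6% and 46.2%. Only 1 gene that rose and 2 that fell on B. subtilis were called in the opposite direction. With E. faecium, 2153 genes passed (15.8%), of which 1290 rose (9.49%) and 863 fell (6.35%). There 799 of those that rose were shared, 53.1% of the B. subtilis list and 61.9% of the E. faecium list, and 448 of those that fell, 42.3% and 51.9%. Across the 13592 genes, which are not independent replicates, the fold change on B. subtilis correlated with that in control cells (Pearson's r = 0.695, Spearman's rho = 0.655) and on E. faecium (r = 0.694, rho = 0.607).

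The lists differed in how the fold change on B. subtilis stood beside that without bacteria. Antiviral effectors had medians of 1.82 log2 units on B. subtilis and 2.59 without bacteria, with 34 and 44 of 45 that rose. CXCR3 ligands had medians of 4.58 and 4.54, and MHC class II genes 1.35 and 1.29. Cytokines of the IL-12, IL-1, IL-6 and IL-10 families had medians of 0.39 and 4.53, with 3 and 10 of 17 that rose. Other chemokines had medians of 1.01 and 2.11, with 2 and 11 of 18 that rose. Ribosomal proteins had medians of 1.00 and 0.30, with 35 and 0 of 63 that rose. Whether any list differed between the 2 settings was not tested as a list.

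Gene by gene, the difference between both changes, that on B. subtilis minus that in control cells, passed for 5 of 13592 genes (0.0368%), 1 above 0 (0.00736%) and 4 below (0.0294%), with 1216 at an unadjusted p under 0.05. SH2D1B, an adaptor of SLAM-family receptors, had 15.3, 20.5 and 19.3 CPM in B. subtilis with poly I:C, against 44.1, 78.2 and 72 CPM in B. subtilis; with poly I:C alone it averaged 24.3 ± 3.81 CPM, against 11.3 ± 1.32 CPM in control (SD, n = 3 each). It fell in one setting and rose in the other, and the changes differed by -2.92 log2 units (SE 0.40, adjusted p = 0.033). VDR, the vitamin D receptor, had 51, 71.8 and 54.1 CPM in B. subtilis with poly I:C, against 135, 153 and 95.3 CPM in B. subtilis, and averaged 48.7 ± 14.3 CPM with poly I:C, against 16.8 ± 3.4 CPM in control (difference -2.65, SE 0.42, adjusted p = 0.0456). IKBKE, a kinase that activates IRF3, averaged 119 ± 7.29 CPM in B. subtilis with poly I:C and 131 ± 4.63 CPM in B. subtilis, and 111 ± 9.78 CPM with poly I:C and 44.1 ± 4.46 CPM in control (difference -1.46, SE 0.24, adjusted p = 0.0466).

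Several cytokines and chemokines named above did not pass on B. subtilis. Of these, IL23A, CCL20, IL1B, CXCL2, TNF, CXCL8 and IL6 had risen with poly I:C in cells without bacteria, by 2.59 to 7.53 log2 units. IL12B (adjusted p = 0.145) and IL10 (adjusted p = 0.0895) had passed in neither setting. IL23A averaged 1230 ± 342 CPM in B. subtilis with poly I:C and 938 ± 198 CPM in B. subtilis, and 331 ± 159 CPM with poly I:C and 1.79 ± 0.949 CPM in control. The difference between its 2 changes was -7.14 log2 units (SE 1.28) and did not pass (adjusted p = 0.0727). CCL20 (-6.16, SE 1.23, adjusted p = 0.0968), IL1B (-5.66, SE 1.29, adjusted p = 0.174), CXCL2 (-4.47, SE 1.03, adjusted p = 0.184), TNF (-4.08, SE 1.24, adjusted p = 0.343) and CXCL8 (-2.83, SE 0.63, adjusted p = 0.156) did not pass either, with 3 libraries per treatment. With the library set as a block in the model, IL23A, CCL20, IL1B, CXCL2 and CXCL8 passed, with adjusted p of 0.00869, 0.0122, 0.0158, 0.00623 and 0.0158. IL6, whose difference without the block was -4.80 (SE 1.96, adjusted p = 0.516), did not pass with it (adjusted p = 0.0969). Neither did TNF (adjusted p = 0.0517). The sets were drawn from the residuals of these same data, so p-values of that fit can come out too small and add no independent support. For ISG15 the same difference was 0.03 log2 units (SE 1.07, adjusted p = 0.995) and for IFNB1 -0.91 (SE 1.47, adjusted p = 0.872), intervals wide enough to hold changes of more than 1 log2 unit in either direction. The change on B. subtilis minus that on E. faecium passed for 0 genes with edgeR (0% of those tested), with 1149 at an unadjusted p under 0.05 and 12 with DESeq2.

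**Figure D5:**
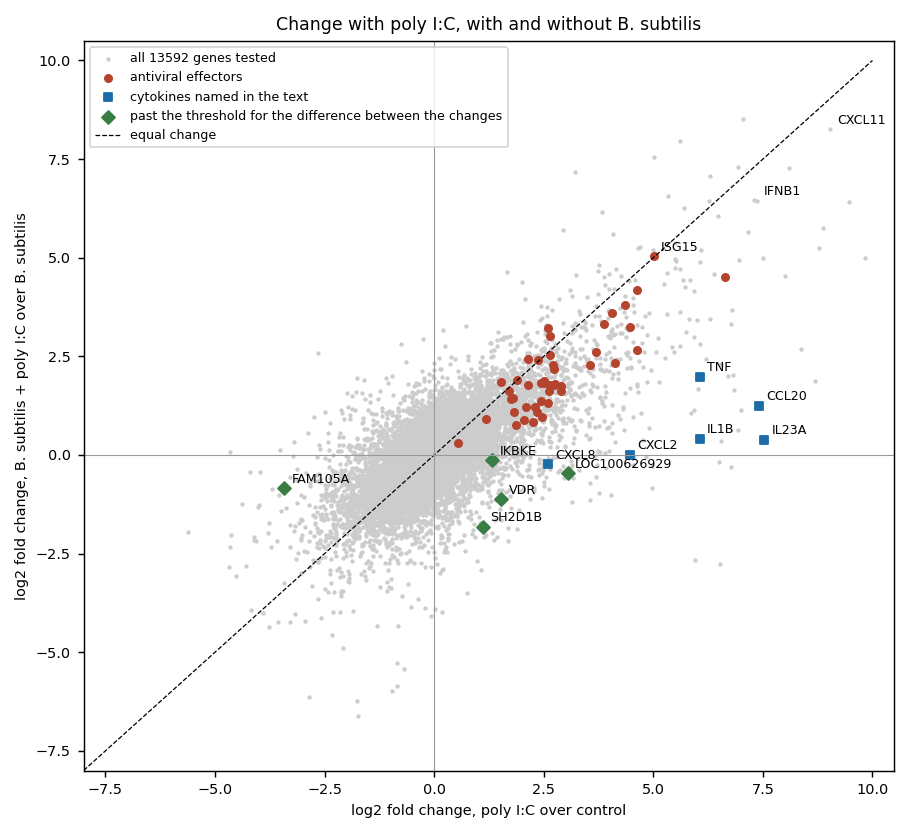
Log2 fold change of 13592 genes with poly I:C, on B. subtilis (vertical axis, B. subtilis with poly I:C over B. subtilis) and in cells without bacteria (horizontal axis, poly I:C over control), 3 libraries per treatment. ISG15 and IFNB1 lie near the dashed line of equal change, whereas IL23A, IL1B and CXCL2 lie near 0 on the vertical axis; diamonds mark the 5 genes whose changes differed past the threshold.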

How the data were processed

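Messenger RNA was measured by sequencing in 18 libraries, and this report uses the 6 of B. subtilis with poly I:C and of B. subtilis, with the other 12 in the same model. The deposited table gives the authors' counts per gene, whole numbers with no normalization. The submitters' processing notes name the build Sscrofa11.1 and the tool DESeq2; no aligner, counting tool or strand setting is given in the sources used here, so reads of overlapping and antisense genes cannot be told apart. Of 30686 rows, 30335 matched RefSeq gene IDs of that build, from which symbols and positions were taken; 351 rows without a symbol took 0.515 to 1.04% of each library and are not named. There were 0 columns of other series.

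Counts were tested in R 4.3.3 with edgeR 4.0.16 (quasi-likelihood, TMM, filterByExpr with a minimum count of 10 over the 6 treatments, 13592 genes kept, 1 mean per treatment over 18 libraries, no block). P-values are two-sided, adjusted by Benjamini and Hochberg over all genes tested, and pass at 0.05; the SE is that implied by the F value. Totals of 16346750 to 27274279 counts per library set the precision. P-values measure the spread between libraries; pig numbers are the labels' own. On simulated counts with known changes the steps were tested before use. Those counts had no library sets and the same spread setting for every gene. That test therefore does not cover differences between sets as seen in these libraries. DESeq2 1.42.0, other scalings, no filter, blocks and leaving out each library were the alternatives.

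Named genes are the 15 highest and 15 lowest past the threshold with a symbol, 5 CPM or more in the higher group and no overlap; a fixed set of interferon and cytokine genes; up to 4 each way per list; and up to 5 each way for the difference between the changes with and without bacteria. Some genes that the rule names are not reported here. The members and lists were chosen with earlier results of these data known. The difference from the change on E. faecium was chosen with the data in view. Same-numbered libraries of the 2 groups correlated at -0.462, -0.309 and -0.226 in their residuals, so numbers do not pair libraries. The library sets were found from the same residuals, which also enter the fits.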

Additional observations from a re-analysis of the deposited data

Results flagged for a closer look

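Poly I:C changed 5 genes differently on B. subtilis and in cells without bacteria by the test of the difference itself, given here as the change on B. subtilis minus the change without bacteria, in log2 units (edgeR's quasi-likelihood test, adjusted over 13592 genes). IKBKE differed by -1.46 (adjusted p = 0.0466), VDR by -2.65 (adjusted p = 0.0456) and SH2D1B by -2.92 (adjusted p = 0.033). FAM105A differed by 2.59 (adjusted p = 0.0456), with 1.59 ± 0.0754 CPM in B. subtilis with poly I:C and 2.84 ± 0.558 CPM in B. subtilis, and 1.56 ± 0.377 CPM with poly I:C and 16.9 ± 4.7 CPM in control (SD, n = 3 each). LOC100626929 differed by -3.51 (adjusted p = 0.0456), with 3.61 ± 0.896 CPM in B. subtilis with poly I:C and 4.97 ± 1.25 CPM in B. subtilis, and 2.87 ± 0.684 CPM with poly I:C and 0.342 ± 0.132 CPM in control. For VDR, SH2D1B, IKBKE and LOC100626929, the level in B. subtilis was the highest of these 4 treatments. The number of genes that differed ranged over 0 to 514 when 1 library was left out, so none of the 5 passed in every such fit.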

How the results depend on the processing

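Of 125 named genes past the threshold, 78 passed in every fit that left out 1 library and 50 of these also under every other setting, CXCL11, IFNB1, ISG15, CXCL10, CCL5, IRF7, DDX58, STAT6 and VENTX among them. The number of genes past the threshold in B. subtilis with poly I:C against B. subtilis was 2606 with RLE factors, 3566 with library totals only, 2015 without a filter, 3381 with DESeq2 (36 genes without an adjusted p), 5624 with the library set as a block and 329 with only the libraries compared, and 1109 to 4854 leaving out 1 library. With the replicate block, pairing libraries by pig number, it was 2316, and 9 named genes lost their call. Poly I:C against control gave 4789 with library totals and 5668 with the set block, and 2014 to 2563 leaving out 1 library. E. faecium with poly I:C against E. faecium gave 3359, 4744 and 1215 to 1954 in the same order. The difference between the changes on B. subtilis and without bacteria gave 1 gene with RLE factors, 2 with library totals, 0 with the replicate block, 521 with the set block, 14 with only the libraries compared, 113 with DESeq2, and 0 to 514 leaving out 1 library. Genes far from the threshold changed sign: with library totals IL1B had -0.07, IL23A -0.09 and CXCL2 -0.45 log2 units, and CXCL2 had -0.02 without a filter and -0.01 with only the libraries compared. Leaving out 1 library gave CXCL2 -0.31 to 0.26, TLR3 -1.43 to 0.28, PECAM1 -0.71 to 0.07, SCGB1A1 -0.46 to 5.11 and IL12B -0.04 to 5.29. Causes were not tested. With 3 libraries per group, a gene that missed the threshold is not shown to be unchanged, and the interval of TIMD4, which has a few counts in 1 group, covers counting error only.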
